A study of Ovis aries with 9 samples.

Results

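The comparison set hepatocytes of female sheep (Ovis aries) at postpartum day 7 with lactation beside hepatocytes at postpartum day 15 with lactation. Members were all cells whose column name carried either stage: 246 cells at day 7 and 553 at day 15, together 799 of the 3404 cells in the series. The remaining cells came from virgin sheep and from 6 ranges of gestational days, and these 7 stages serve here only as context. Livers of slaughtered sheep were kept cold, minced and digested with collagenase, single hepatocytes were picked by hand, and each cell was given its own library by Smart-seq3xpress, a plate-based single-cell RNA method. Each stage was deposited as 1 sample, no agent or genotype was named, and the labels do not say how many animals gave the cells. There is therefore no replicate of either day and no test of the stage difference: every value describes these 2 libraries.

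The hepatocyte is the main parenchymal cell of the liver. It secretes most plasma proteins, among them the acute phase proteins and complement that are made in larger amounts after infection or injury, and it supplies the lactating mammary gland with glucose. Ruminants make nearly all of that glucose in the liver, largely from propionate, and make fat mainly in adipose tissue and udder rather than in liver. Early lactation is a period in which mobilised fat reaches the liver and in which the organ also returns from the state around birth.

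The day 7 library held 114865665 reads on named genes, with a median of 401823 reads and 6337.5 genes per cell. The day 15 library held 272944124 reads, with medians of 388578 reads and 6255 genes. All reads of a day were added up over its cells and expressed as CPM (counts relative to the size of the library, after TMM scaling), so that cells with more reads weigh more. For genes at 20 CPM or more, counting error alone (exact Poisson 95% interval) came to at most 3.98% of the value at day 7 and 2.49% at day 15. Such intervals cover counting error only, since reads are not independent molecules, and say nothing of differences between animals. All 13 hepatocyte markers were present on both days, among them ALB (49040 and 30934 CPM), APOB (1299 and 1196 CPM) and HNF4A. They summed to 122060 CPM at day 7 and 88770 CPM at day 15, both below the 173825 to 227330 CPM of the other 7 stages. ALB stood at 81010 CPM or more in each of those stages. No column name was shared by the 2 stages and no cells of these stages held identical counts.

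Markers of other cells were low in the sums but uneven between the days. The 9 macrophage markers summed to 50.1 CPM at day 7 and 12.6 CPM at day 15, with CD68 at 0 on both days, against 20.3 to 55.2 CPM over the other 7 stages. The 9 lymphocyte markers summed to 48.5 and 4.23 CPM, against 3.48 to 34.7 CPM elsewhere. Red cell markers summed to 229 and 3.12 CPM, and 97.7% of the day 7 reads of HBB, the beta chain of haemoglobin, lay in 1 cell. Neutrophil markers stood at 13.2 and 8.09 CPM against 1.05 to 4.38 CPM elsewhere, platelet markers at 3.91 and 1.59 CPM, and bile duct markers at 0.613 and 0.855 CPM. The 10 endothelial markers in the table summed to 11.7 and 13.9 CPM with VWF at 0 at day 7, and the 12 stellate and fibroblast markers to 3.06 and 18.2 CPM with DCN and LUM at 0 at day 7. Over 100 CPM of blood cell markers was found in 55 of the 246 cells at day 7 and in 25 of the 553 at day 15.

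Levels also shifted in blocks within each library along the number that ends each cell's column name. The labels do not say what these numbers stand for. To show that spread, the cells of each day were taken in order of their number and divided into 10 runs of nearly equal size, 24 or 25 cells at day 7 and 55 or 56 at day 15. Among genes at 20 CPM or more in either of 2 neighbouring runs, the share that differed 2-fold or more went from 3.26% to 12.4% at day 7 and from 1.07% to 13.4% at day 15. At day 15 ALB stood between 49426 and 50942 CPM in runs 4 to 6 and between 19515 and 23761 CPM in the other 7 runs. Runs are parts of 1 library and not replicates. Their lowest and highest values are given beside each difference as the spread within the library, and whether the runs come from different animals or plates was not tested.

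Of the 8779 genes at 5 CPM or more on the higher day, 915 (10.4%) differed 2-fold or more, 413 (4.7%) higher at day 15 and 502 (5.72%) higher at day 7. The median log2 ratio of day 15 over day 7 was 0.04, so more genes were higher at day 15 than at day 7 by any amount. Their share was not counted, and the directions of list members below are to be read beside this median. The fold was at least 4 for 81 genes higher at day 15 and for 169 higher at day 7. With scaling by library size alone that median moved to 0.14, and the share of the differing genes that were higher at day 15 moved from 45.1% to 55.9%, so the balance of the 2 directions depends on the scaling. In 98 of the 413 genes (1.12% of all measured) every run of day 15 lay above every run of day 7, and in 115 of the 502 (1.31%) the reverse held. The runs overlapped in the remaining 702 genes. Across successive stages of the series the share past 2-fold ran from 5.4% (gestational days 40 to 50 against 50 to 70) to the 10.4% found here.

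**Figure D1:**
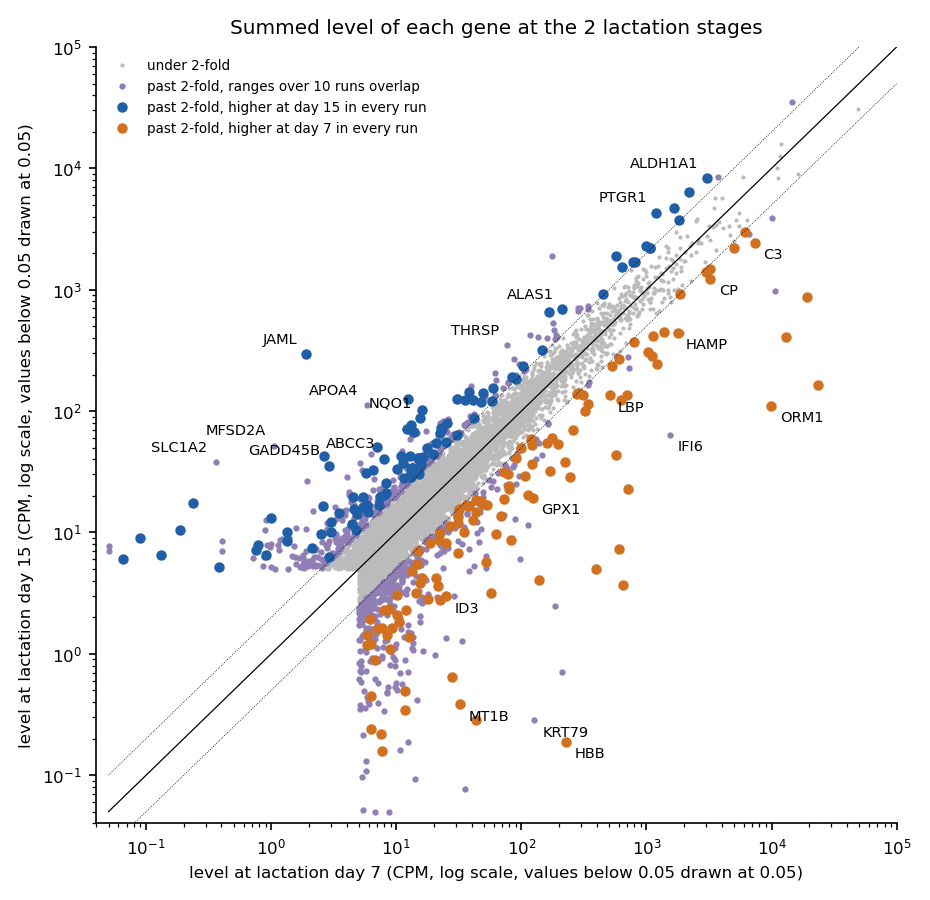
Level of each of the 8779 measured genes at lactation day 7 (horizontal) and day 15 (vertical), in CPM on log axes, 1 point per gene; the solid line marks equal levels and the dotted lines a 2-fold difference. Blue and orange points are the 98 and 115 genes whose 10 runs did not overlap between the days, purple points the 702 whose runs did; ORM1 (90.0-fold) and JAML (154-fold) lie far from the line on opposite sides.

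The secreted proteins of the acute phase were higher at day 7. Of 16 measured members 8 were 2-fold or more higher at day 7 and 0 were so at day 15, with a median log2 ratio of -0.94, against 5.72% of all genes higher at day 7. In 7 of those 8 the runs of the 2 days did not overlap. Of all genes 1.31% were past 2-fold higher at day 7 with runs apart. The median of the list was between -0.83 and -1.04 under every alternative scaling and weighting of cells that was run.

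ORM1, which encodes the plasma carrier alpha-1-acid glycoprotein, stood at 9984 CPM at day 7 (counting interval 9966 to 10001) and 111 CPM at day 15 (110 to 112), a 90.0-fold difference. By run it ranged from 5837 to 14410 CPM at day 7 and from 65.4 to 194 CPM at day 15. The median cell held 9115 CPM at day 7 and 36.1 CPM at day 15, so the difference was seen in most cells. ORM1 also varied among the other stages, from 50.6 CPM to 7829 CPM in gestation, the latter at days 140 to 150, with 1894 CPM in the virgin sample. The gene has close relatives, and the sources used here do not give how reads shared between copies were assigned.

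C3, the central component of complement, was at 7368 CPM at day 7 (runs 5755 to 8699) and 2441 CPM at day 15 (1858 to 2960). CP, the copper-carrying ferroxidase ceruloplasmin, was at 3244 (2235 to 3812) and 1229 CPM (1023 to 1651). ITIH4, an inter-alpha-trypsin inhibitor heavy chain, was at 1393 (886 to 1671) and 447 CPM (378 to 513). None of these 3 genes had overlapping runs, and each was read in every cell of both days. LBP, which presents bacterial lipopolysaccharide to its receptor, was 3.75-fold higher at day 7, at 508 CPM (268 to 649) against 135 CPM (76.0 to 191). The fibrinogen chains differed less: FGB stood at 16393 and 9016 CPM, FGA at 6396 and 3762 CPM, and FGG at 11285 and 8295 CPM.

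HAMP encodes hepcidin, the hormone that closes the iron exporter of gut cells and macrophages. It was at 1772 CPM at day 7 (runs 1341 to 2224) and 443 CPM at day 15 (190 to 807), a 4.00-fold difference. The median cell held 1588 CPM at day 7 and 59.6 CPM at day 15, where the upper decile reached 1184 CPM. ID1, a target of the BMP signal that drives hepcidin, was at 62.1 CPM (41.0 to 89.7) and 9.66 CPM (3.89 to 16.2). Its relative ID3 was at 25.1 CPM (10.8 to 57.1) and 2.98 CPM (0.919 to 6.21). The runs of the 3 genes did not overlap. TFR2, an iron sensor of the hepatocyte, differed 1.63-fold in the same direction (118 and 72.1 CPM). Over the 20 measured genes of iron and heme the median was 0.00. At day 15 2 members were past 2-fold and at day 7 2, against 4.7% and 5.72% of all genes.

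Complement was also higher at day 7. All 18 measured members were higher at day 7, with a median log2 ratio of -0.77 against 0.04 over all genes. The difference was 2-fold or more in 4 (C3, which is in both lists, C6, C8B and CFHR5), against 5.72% of all genes. C6 and C8B, subunits of the membrane attack complex, stood at 527 against 235 CPM and at 604 against 270 CPM, with runs apart. Coagulation proteins had a median of -0.56, with 16 of 17 higher at day 7. Only 1, PLG, was past 2-fold, near the 5.72% share of all genes. PLG, the precursor of plasmin, was at 3202 CPM (2076 to 3933) and 1495 CPM (1157 to 1905). Prothrombin, F2, was at 1563 CPM (1034 to 1904) and 793 CPM (666 to 922), just under 2-fold. CFHR5 and PLG came under 2-fold with scaling by library size alone. When the members of each list were summarised by run, as the median log2 deviation from the mean of both days, complement lay between -0.03 and 0.54 at day 7 and between -0.52 and -0.29 at day 15. Acute phase proteins lay between 0.12 and 0.77 and between -0.62 and -0.47, and coagulation proteins between -0.03 and 0.41 and between -0.34 and -0.17. In each list the first 3 runs of day 7 were the lowest of that day. Complement held -0.03 to 0.06 in them and 0.34 to 0.54 in the later runs. Acute phase proteins held 0.12 to 0.27 and 0.48 to 0.77, and coagulation proteins -0.03 to -0.01 and 0.25 to 0.41. The hepatocyte markers lay between 0.05 and 0.24 at day 7 and between -0.39 and -0.09 at day 15.

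Of 14 measured plasma carrier proteins 12 were higher at day 7, with a median of -0.48 and overlapping runs. By run the list lay between -0.13 and -0.06 in the first 3 runs of day 7 and between 0.13 and 0.42 in the later ones. The first 3 runs of day 15 lay between -0.04 and 0.05, above those early day 7 runs, and the rest between -0.41 and -0.21. At day 7 2 members were past 2-fold and at day 15 0, against 5.72% and 4.7% of all genes. The 2 were the fetuins, which bind mineral and inhibit proteases: FETUB at 1137 (829 to 1370) against 417 CPM (325 to 577), and AHSG at 10149 (5193 to 13087) against 3930 CPM (2411 to 5396), the latter with a small overlap of runs. TTR, a thyroxine carrier and 1 of the 2 members higher at day 15, was at 11963 and 15998 CPM with overlapping runs. FGL1, a fibrinogen-like hepatokine, was 2.14-fold higher at day 7 with runs apart. Of 24 measured genes of endoplasmic reticulum folding 22 were higher at day 7, but 1 passed 2-fold (PDIA4, a disulfide isomerase, at 347 and 173 CPM), and the median was -0.39 with overlapping runs.

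**Figure D2:**
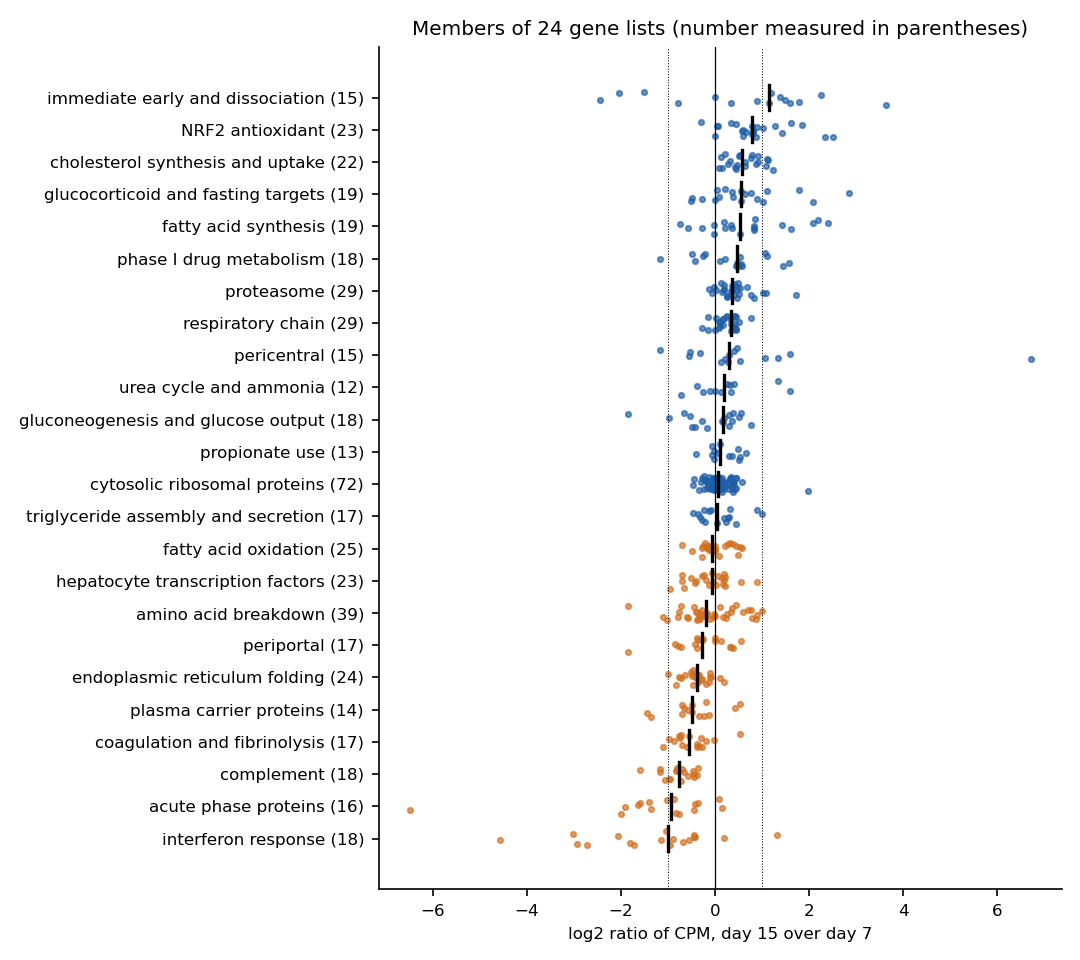
Log2 ratio of CPM, day 15 over day 7, for the measured members of 24 gene lists; each point is 1 gene, the black bar is the list median, and dotted lines mark 2-fold. Interferon genes, acute phase proteins and complement have the lowest medians (-1.003, -0.94 and -0.77), and immediate early genes and NRF2 targets the highest (1.15 and 0.79).

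Several further genes were higher at day 7 in every run. SLC13A5, the sodium-coupled citrate importer, was at 113 CPM (96.2 to 133) and 20.2 CPM (15.5 to 31.3). At days 140 to 150 of gestation it was at 105 CPM, and in the virgin sample and the other 5 gestation stages it lay between 10.9 and 36.4 CPM. H6PD, which makes NADPH inside the endoplasmic reticulum, was at 197 and 53.9 CPM, and PDZK1IP1, a small membrane protein, at 222 and 37.9 CPM. The ceramidase ASAH2 and LGALS9, a galactose-binding lectin, were likewise apart in their runs, at 21.4 against 3.62 CPM and 22.4 against 2.78 CPM.

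GPX1, the selenium-containing glutathione peroxidase of the cytosol, was at 123 CPM at day 7 (99.0 to 153) and 19.3 CPM at day 15 (14.6 to 24.4). The virgin and gestation samples lay between 80.4 and 149 CPM, so the day 15 library stood apart from all 8 others. After thinning every cell to 155164 reads, 99.1% of day 7 cells and 71.9% of day 15 cells had a GPX1 read. MT1B, a metallothionein that binds zinc and copper, was at 32.4 CPM (19.1 to 45.7) and 0.384 CPM (0.0322 to 2.34), an 84.4-fold difference. It was read in 77.8% and 2.42% of thinned cells. Metallothioneins form a cluster of similar genes, so reads may be shared between copies.

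Interferon response genes were also higher at day 7, with a step within that library for some of them. Of 18 measured members 9 were past 2-fold higher at day 7 and 1, B2M, was past it at day 15 (5.72% and 4.7% of all genes), with a median of -1.003. By run the list was at -0.36 in the first run of day 7, at 0.37 and 0.38 in the next 2 and between 0.11 and 0.56 in the other 7, against -0.90 to -0.31 at day 15, so that as a list only the first run reached the day 15 range. IFI6 and ISG15 differed from the list in this. IFI6, an interferon-induced mitochondrial protein, stood at 1530 CPM at day 7 and 63.9 CPM at day 15. It was also at 1296 CPM at gestational days 140 to 150 and at 646 CPM in virgin cells. The interferon genes in the table summed to 2082 and 444 CPM on the 2 days, against 426 to 1792 CPM over the other 7 stages. Within day 7 its first 3 runs held 53.1, 106 and 70.5 CPM and the other 7 between 1084 and 2275 CPM. Runs 4 to 6 of day 15 held 198, 153 and 91.1 CPM, in the range of those early runs or above it. ISG15, a ubiquitin-like protein, ran from 43.6 to 48.7 CPM in the first 3 runs of day 7 and from 96.5 to 200 CPM in the rest, against 28.8 to 65.1 CPM at day 15. Virgin cells held 206 CPM of ISG15, above the 132 CPM of day 7. HERC6, an interferon-induced ligase, was at 33.3 and 8.01 CPM with overlapping runs. Without the cells that held blood cell markers the median of the list was -0.88. PSMB8, an immunoproteasome subunit, moved from -1.15 to -0.44 on the log2 scale without them. The part of those cells in the other members was not tested beyond this. B2M, the light chain of MHC class I, was at 47.1 CPM (31.8 to 69.7) and 118 CPM (82.4 to 190).

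The boundary after the third run of day 7 also marked several of the genes with the largest fold. KRT79, a keratin, was at 127 CPM at day 7 and 0.282 CPM at day 15, a 450-fold difference. Its first 3 runs at day 7 held 7.10, 15.0 and 0.328 CPM and the rest 119 to 194 CPM. TENT5A, a poly(A) polymerase, stood between 11.2 and 17.8 CPM in those runs and between 40.7 and 58.8 CPM in the later ones, against 0.818 to 20.2 CPM at day 15. REEP5, a shaping protein of the endoplasmic reticulum, and NNMT, which methylates nicotinamide, showed the same step. QSOX1, which forms disulfide bonds, was at 45.6 CPM at day 7. At day 15 it held 18.4 to 21.9 CPM in runs 4 to 6 and 0.188 to 4.95 CPM elsewhere.

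**Figure D3:**
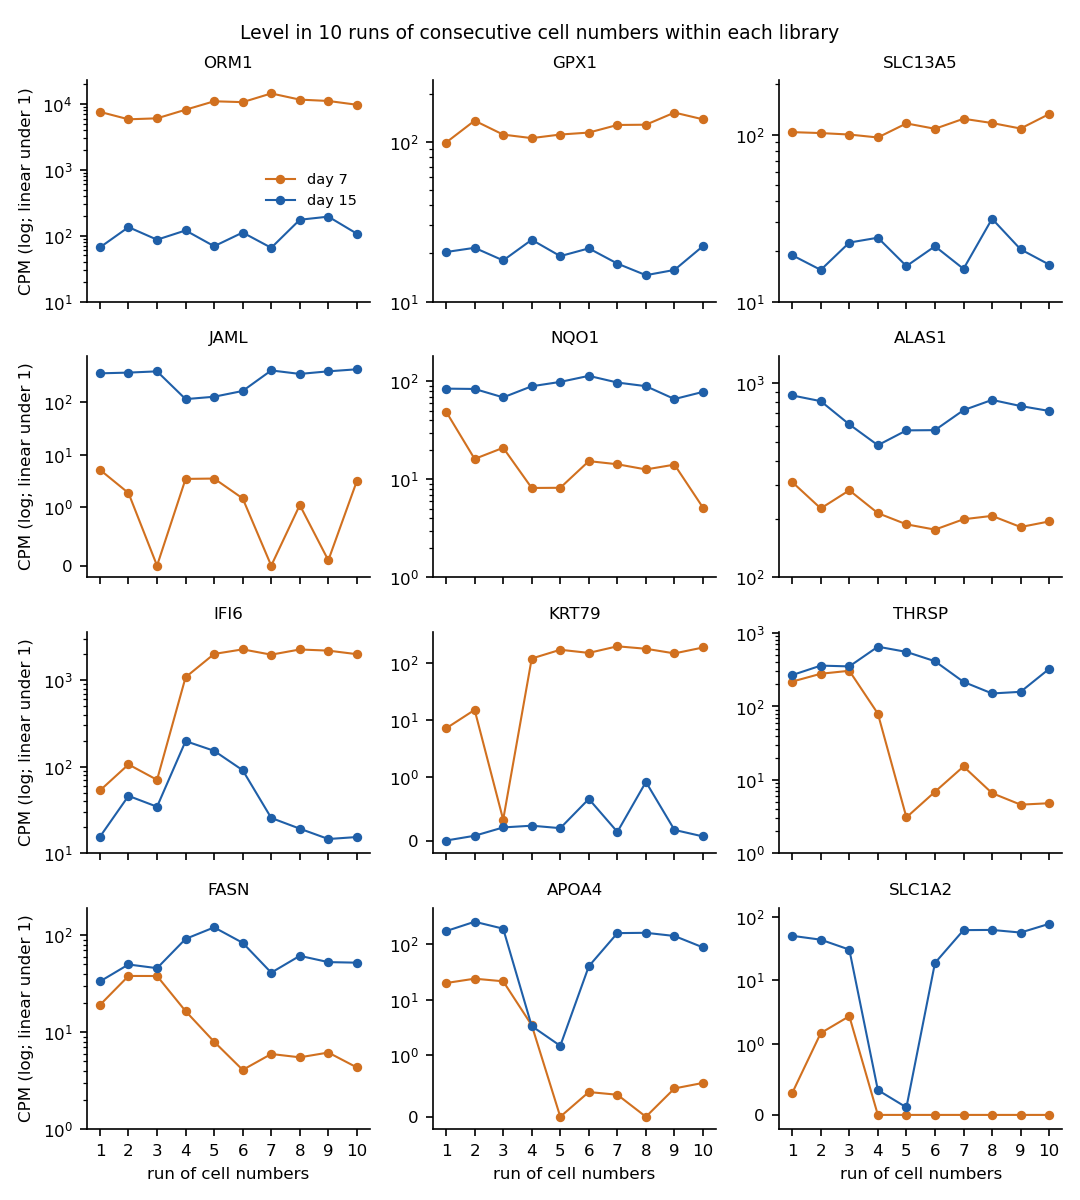
CPM of 12 genes in 10 runs of consecutive cell numbers within the day 7 (orange) and day 15 (blue) libraries, on a log scale, linear under 1 CPM where values reach it. The first 6 genes (ORM1, GPX1, SLC13A5, JAML, NQO1 and ALAS1) keep the 2 days apart in every run; IFI6, KRT79, THRSP, FASN, APOA4 and SLC1A2 step after the third run of day 7 or around runs 4 to 6 of day 15.

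At day 15, JAML, a junctional adhesion molecule best known from leukocytes, had the largest fold of the genes named by size. It was at 1.90 CPM at day 7 (counting interval 1.66 to 2.16, runs 0 to 5.15) and 293 CPM at day 15 (291 to 295, runs 113 to 418), a 154-fold difference. A read was found in 7.56% of thinned cells at day 7 (exact Clopper-Pearson 95% interval 4.46% to 11.8%) and in 99.0% at day 15 (97.7% to 99.7%). The median day 15 cell held 296 CPM, and lymphocyte markers summed to 4.23 CPM there. In virgin cells JAML was at 20.0 CPM, and in gestation it lay between 50.2 and 143 CPM, so the day 7 library was below and the day 15 library above all other stages.

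Genes that the transcription factor NRF2 is known to switch on against oxidants and electrophiles were higher at day 15. Of 23 measured members 22 were higher at day 15, 7 of them by 2-fold or more, against 4.7% of all genes. The median was 0.79 against 0.04 over all genes. By run the list lay between -0.54 and -0.26 at day 7 and between 0.09 and 0.50 at day 15. NQO1, a quinone reductase, was at 15.5 CPM (5.14 to 49.2) and 88.1 CPM (66.1 to 114). SRXN1, which repairs peroxiredoxins, was at 23.1 CPM (8.13 to 29.2) and 71.3 CPM (50.5 to 95.8). ABCC3, which exports conjugates to blood, was at 7.98 CPM (1.75 to 18.4) and 40.3 CPM (32.0 to 47.0), and FTL, the light chain of ferritin, at 633 CPM (577 to 707) and 1543 CPM (766 to 2931).

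NQO1, SRXN1, ABCC3 and FTL did not overlap in their runs. With the median over runs in place of the sum, FTL was at 0.67 on the log2 scale and so under 2-fold. GCLC, the catalytic subunit for glutathione synthesis, was at 110 and 221 CPM with overlapping runs. GCLM, its partner subunit, was at 221 CPM on both days, and HMOX1, the heme oxygenase, at 39.7 and 40.8 CPM. NQO1 at day 15 was above the 8.87 to 34.7 CPM of the virgin and gestation samples. ABCC3 exceeded the 0.804 to 7.34 CPM seen there on both days. FTL and GCLC at day 15 were within the ranges of those samples, which reached 1579 and 254 CPM. The NRF2 genes in the table summed to 11986 CPM at day 7, below the 12457 to 20278 CPM of the other stages. At day 15 they summed to 18580 CPM, within that range.

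Several abundant enzymes of phase I drug metabolism were higher at day 15. Of 18 measured phase I genes 13 were higher at day 15 and 5 at day 7. At day 15 4 were past 2-fold, all with runs apart, and at day 7 1, the receptor AHR, against 4.7% and 5.72% of all genes. Of all genes 1.12% were past 2-fold at day 15 with runs apart. The median of the list was 0.47. Phase II enzymes and transporters were mixed, with 10 of 17 higher at day 15 and a median of 0.12. At day 15 3 were past 2-fold and at day 7 2, beside 4.7% and 5.72% of all genes. ALDH1A1, which oxidises retinal, was at 3050 CPM (2124 to 5201) and 8321 CPM (6573 to 10758). CYB5A, the electron carrier cytochrome b5, was at 2179 CPM (1553 to 3688) and 6434 CPM (5323 to 7804). FMO1, a flavin monooxygenase, and MGST1, a membrane glutathione transferase, were at 786 against 1689 CPM and 1067 against 2225 CPM. ALAS1, the rate-limiting enzyme of heme synthesis, was at 213 CPM (176 to 310) and 694 CPM (480 to 867). In gestation ALAS1 reached 735 CPM at days 50 to 70 and 746 CPM at days 70 to 80. PTGR1, an alkenal reductase chosen after its values were seen, was at 1190 CPM (834 to 1799) and 4310 CPM (3649 to 5433).

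Fatty acid synthesis was higher at day 15 in the sums, with 5 of 19 measured members past 2-fold (4.7% of all genes), 0 past it at day 7 and a median of 0.53. By run the list lay between -0.60 and 0.33 at day 7 and between -0.16 and 0.60 at day 15, so the days overlapped. FASN, the synthase itself, was at 12.9 and 67.6 CPM. THRSP, a regulator of lipogenesis, was at 76.9 and 351 CPM, ACLY, which makes acetyl-CoA from citrate, at 22.1 and 67.3 CPM, and SCD, the stearoyl-CoA desaturase, at 6.58 and 27.7 CPM. The runs of all 4 overlapped. In the first 3 runs of day 7 THRSP held 218, 279 and 307 CPM, against 3.08 to 79.9 CPM in the other 7 and 151 to 653 CPM at day 15. FASN held 19.0, 37.9 and 37.9 CPM in those 3 runs and 4.07 to 16.4 CPM in the rest, against 33.3 to 120 CPM at day 15. SCD at day 15 was at 30.2 to 72.8 CPM in runs 4 to 6 and at 6.74 to 15.8 CPM in the other runs, and with the median over runs its log2 ratio was 0.88, under 2-fold. Virgin cells held 90.8 CPM of FASN and 444 CPM of THRSP, and cells of gestational days 140 to 150 held 4.29 and 5.38 CPM.

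Cholesterol synthesis was higher at day 15 as well. All 22 measured members were higher at day 15, 4 of them past 2-fold (4.7% of all genes), with a median of 0.58 against 0.04 over all genes. By run the list lay between -0.68 and 0.27 at day 7 and between -0.18 and 0.67 at day 15, overlapping, and its highest day 15 values, 0.55 to 0.67, were in runs 4 to 6. SQLE, squalene epoxidase, was at 146 CPM (122 to 189) and 317 CPM (225 to 408) with runs apart. HMGCS1, the cytosolic synthase that feeds the pathway, was at 281 and 663 CPM. Its runs 4 to 6 at day 15 held 998 to 1156 CPM, and the other 7 held 319 to 560 CPM, overlapping the 219 to 397 CPM of day 7. FDPS, farnesyl diphosphate synthase, was at 62.0 and 134 CPM with overlapping runs. With the median over runs HMGCS1 was at 0.85 on the log2 scale. At gestational days 140 to 150 the same genes were lower than on either lactation day (SQLE 37.6 CPM, HMGCS1 88.8 CPM, FDPS 8.88 CPM).

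Among glucocorticoid and fasting targets 5 of 19 measured were past 2-fold at day 15 and 0 at day 7 (4.7% and 5.72% of all genes), with a median of 0.54. By run the list lay between -0.38 and 0.00 at day 7 and between -0.64 and 0.54 at day 15, the lowest of these in run 4. FKBP5, a chaperone that glucocorticoids induce, was at 5.16 and 37.3 CPM, SGK1, a kinase of the same response, at 11.1 and 46.6 CPM, and IGFBP1, a secreted binder of insulin-like growth factors, at 343 and 740 CPM. Each was low in runs 4 and 5 of day 15 (FKBP5 at 1.75 and 6.96 CPM, SGK1 at 14.4 and 12.8 CPM, IGFBP1 at 270 and 310 CPM). Immediate early genes, a group that dissociation of tissue can raise, had a median of 1.15 and overlapping runs. Of 15 measured members 8 were past 2-fold at day 15 and 3 at day 7 (FOS, JUNB and DUSP2), against 4.7% and 5.72% of all genes. GADD45B, a growth arrest and stress protein of that list, was at 2.87 CPM (0.727 to 5.17) and 35.6 CPM (23.0 to 58.5) with runs apart. MYC stood at 13.3 and 63.1 CPM and DUSP1 at 23.8 and 82.5 CPM. The sources used here do not give the time from slaughter to lysis, and its part was not tested.

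SLC1A2, MFSD2A and APOA4 were high in most runs of day 15 but not in runs 4 and 5. SLC1A2, a glutamate importer, was at 0.360 and 37.8 CPM, and MFSD2A, a carrier of lysophospholipids, at 1.05 and 51.7 CPM. APOA4, an apolipoprotein of triglyceride-rich particles, was at 5.78 and 112 CPM. In runs 4 and 5 of day 15 they held 0.350 and 0.106 CPM, 1.17 and 1.12 CPM, and 3.33 and 1.47 CPM. In runs 1 to 3 and 7 to 10 they held 30.3 to 76.8, 49.5 to 90.9 and 87.0 to 253 CPM. PLIN2, the coat protein of lipid droplets, was at 10.1 and 10.5 CPM in runs 4 and 5 of day 15 and at 52.5 CPM or more in runs 1 to 3 and 7 to 10. In the first 3 runs of day 7 it was at 32.7 to 54.5 CPM, and in the later ones at 9.63 to 23.5 CPM. At gestational days 140 to 150 SLC1A2 stood at 62.8 CPM, APOA4 at 86.2 CPM and PLIN2 at 103 CPM. The genes LRRC19, CYFIP2 and MIOX followed the same block at day 15, with 2.80 and 5.89, 0.467 and 2.02, and 2.22 and 2.99 CPM in runs 4 and 5.

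Of 12 measured genes of the urea cycle and ammonia handling 2 were past 2-fold at day 15, 1 of them with runs apart, and 0 at day 7. The shares over all genes were 4.7% and 5.72%, and 1.12% for past 2-fold at day 15 with runs apart. The list median was 0.20 with overlapping runs. GLUL, glutamine synthetase, was at 95.5 and 243 CPM, but 24.8% of its day 7 reads and 14.5% of its day 15 reads were in 1 cell each, and its runs went from 4.74 to 268 CPM and from 50.9 to 664 CPM. With cells weighted equally GLUL was at 0.97 on the log2 scale, under 2-fold. RHBG, an ammonium channel of the same zone around the central vein, was at 40.8 CPM (28.1 to 64.8) and 122 CPM (67.4 to 191) with runs apart. It was read in 52.9% of thinned cells at day 7 and 89.1% at day 15. Over 15 measured pericentral genes the median was 0.30, with 4 past 2-fold at day 15 and 1 at day 7. Over 17 periportal genes it was -0.28, with 0 and 1. The counts of both lists stand beside 4.7% and 5.72% of all genes. By run the pericentral list lay between -0.70 and -0.002 at day 7 and between -0.07 and 0.34 at day 15. The periportal list lay between -0.32 and 0.30 and between -0.41 and 0.09, so the days overlapped in both lists. The urea cycle enzymes CPS1 and OTC were at 889 against 977 CPM and 309 against 393 CPM.

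**Figure D4:**
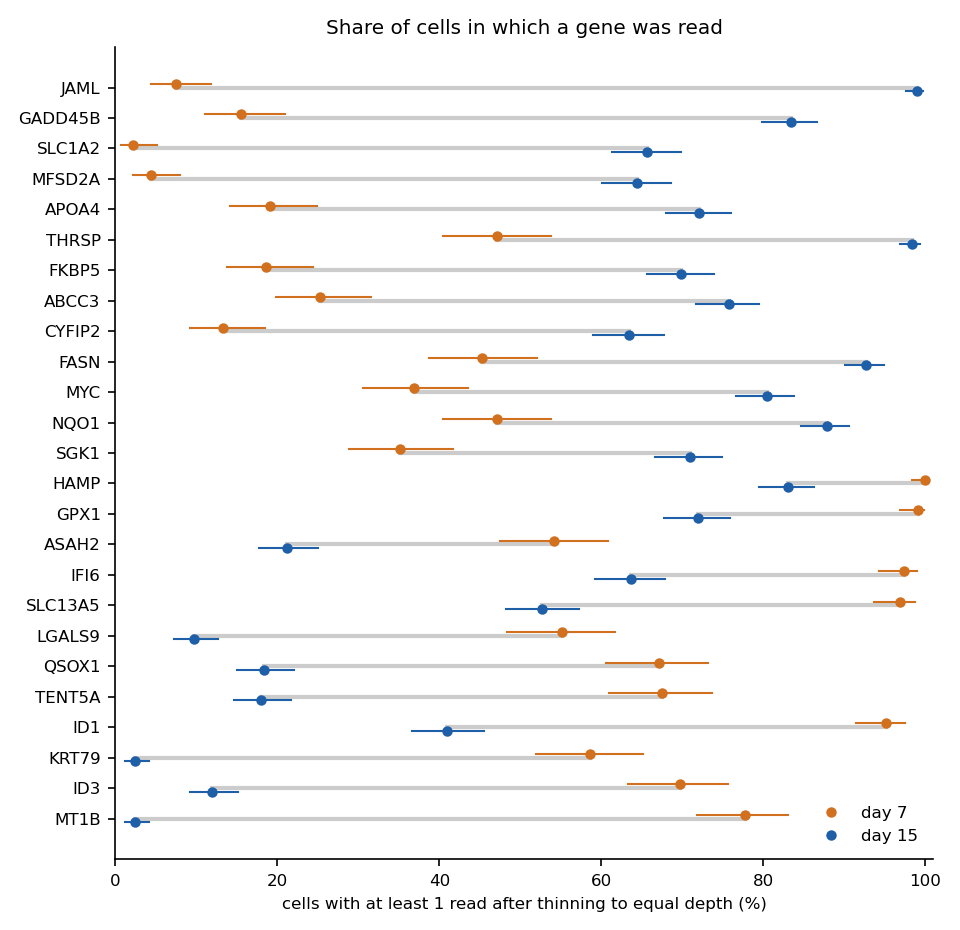
Share of cells with at least 1 read of 25 genes after thinning each cell to 155164 reads, at day 7 (orange, 225 cells) and day 15 (blue, 495 cells), with exact Clopper-Pearson 95% intervals that cover counting error only. JAML goes from 7.56% at day 7 to 99.0% at day 15, and MT1B from 77.8% to 2.42%.

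Detection per cell gave the same order as the summed levels for the leading genes. Thinning left out 21 cells at day 7 and 58 at day 15, and the median cell then showed 5732 and 5966 genes. GADD45B was read in 15.6% of thinned cells at day 7 and 83.4% at day 15 (21.1% and 87.3% before thinning), and ABCC3 in 25.3% and 75.8% (28.0% and 77.6%). SLC1A2 was read in 2.22% and 65.7% (2.44% and 67.1%). In the other direction KRT79 was read in 58.7% and 2.42% (60.6% and 5.06%), ID3 in 69.8% and 11.9% (72.8% and 15.4%) and SLC13A5 in 96.9% and 52.7% (97.2% and 59.1%). Genes read in all cells differed in amount instead: the central 80% of cells held 4672 to 9886 CPM of C3 at day 7 and 1448 to 3440 CPM at day 15, and 1305 to 3567 and 3999 to 9110 CPM of CYB5A.

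Several lists of central metabolism had medians near 0. No member of fatty acid oxidation (25 measured, median -0.06), triglyceride assembly and secretion (17, 0.05), propionate use (13, 0.11), glycolysis and glycogen (21, 0.13), aminoacyl-tRNA synthetases (20, 0.06) or hepatocyte transcription factors (23, -0.07) was past 2-fold. Over all genes 10.4% were past it in either direction, so lists this short would hold few such members at that share. GK, of triglyceride assembly, was just under 2-fold at 59.7 and 119 CPM, as was the transcription factor FOXA2 at 37.2 and 19.1 CPM. In gluconeogenesis and glucose output 1 of 18 was past 2-fold, higher at day 7 (5.72% of all genes), with a median of 0.16. PCK1, which commits carbon to glucose, was at 2101 CPM (1845 to 2676) and 2750 CPM (1825 to 3833), and PC, pyruvate carboxylase, at 146 CPM (109 to 174) and 92.1 CPM (73.1 to 121), with overlapping runs. Most members were higher at day 15 in the respiratory chain (26 of 29, median 0.33, 0 past 2-fold), the proteasome (26 of 29, 0.37, 3 past 2-fold) and ribosome biogenesis (17 of 20, 0.49, 2 past 2-fold, MYC and RRS1). All 3 lists had overlapping runs. Of all genes 4.7% were past 2-fold at day 15, and the median over all genes was 0.04. Among 72 cytosolic ribosomal proteins the median was 0.07 and 1, RPL36, was past 2-fold, at 166 and 653 CPM. RPL36 has near-identical copies in mammalian genomes, so its assignment is uncertain.

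Of the genes past 2-fold, 267 carried LOC identifiers, 116 higher at day 15 and 151 higher at day 7. LOC101120204 and LOC101102413, chosen after their values were seen, are listed as protein-coding by RefSeq (ARS-UI_Ramb_v3.0). LOC101120204 was at 23385 CPM (1357 to 36424) and 163 CPM (50.6 to 295), a 143-fold difference, and its nearest named neighbour on one side is HPS5. LOC101102413, between TXNL4B and DHODH, was at 19059 CPM (7907 to 25111) and 872 CPM (116 to 1752). The runs of both loci did not overlap. In the other direction the highest level at day 15 was that of LOC121818276, a transcribed pseudogene. It was at 14449 CPM (4280 to 56106) and 35305 CPM (7150 to 62536), with widely overlapping runs. LOC101104832, between RSPH4A and RWDD1, was at 1663 CPM (1017 to 2104) and 4744 CPM (3908 to 6642), and LOC101107119 was at 570 CPM (442 to 782) and 1913 CPM (1500 to 2316).

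Set among all 9 stages, the differing genes involved both libraries. Of the 502 genes higher at day 7, the day 7 library was above the other 7 stages for 283 (56.4%) and the day 15 library below them for 260 (51.8%). Of the 413 higher at day 15, the day 15 library was above the others for 227 (55.0%) and the day 7 library below them for 160 (38.7%). Among all measured genes those shares were 18.6%, 13.2%, 18.9% and 16.2%. The choice of genes by their difference raises these shares by itself, so they are a description. C3, ITIH4, LBP and HAMP at day 7 and NQO1, ALDH1A1 and SQLE at day 15 were above all 7. GPX1, C3, CP, ITIH4 and SELENOP at day 15 were below all 7.

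**Figure D5:**
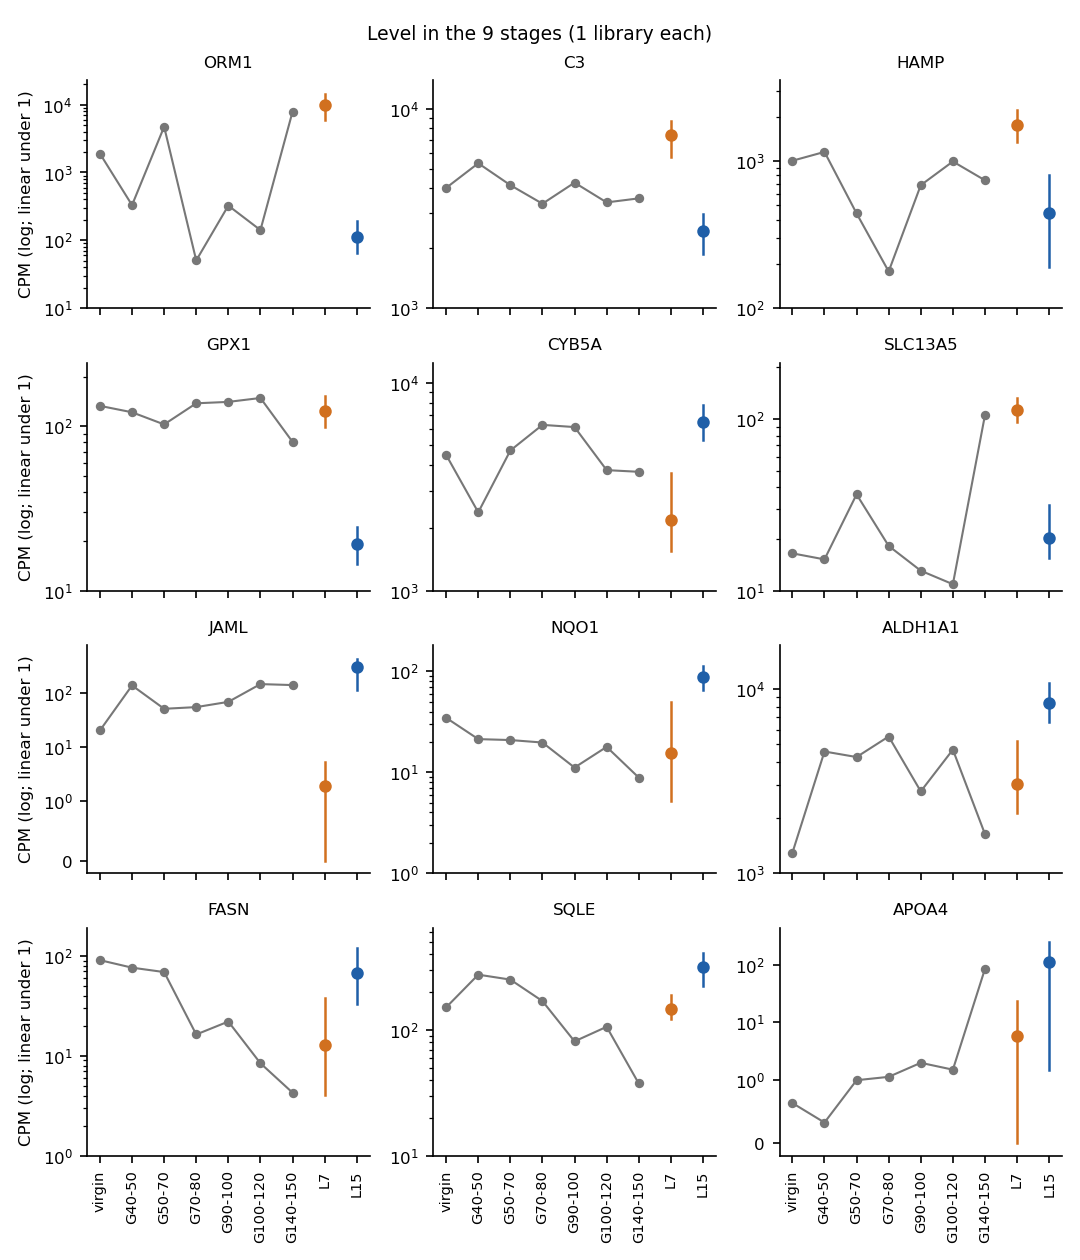
CPM of 12 genes in the 9 stages (1 library each; G, gestational days; L, lactation day) on a log scale, linear under 1 CPM in the panels that reach it; grey points are the 7 other stages, and bars at L7 and L15 span the 10 runs of cell numbers. GPX1 and C3 stand below all other stages at L15, JAML apart at both lactation days, and ORM1, SLC13A5 and APOA4 are high at G140-150 as well as on 1 of the lactation days.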

How the data were processed

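Single hepatocytes of 9 stages were sequenced by Smart-seq3xpress and deposited as 1 table of 28861 rows by 3404 cells. The values are whole-number read counts per gene and cell, deposited by the authors without normalization. The tools named in the submitters' processing notes are featureCounts 2.0.1, HISAT2 2.1.0 and Trimmomatic 0.39. No label gives the genome build, the strand setting or a collapsing of molecular tags. The 24 rows with no gene name (0.474% of reads) were dropped, and 28837 genes remained. All symbols of the measured genes were found in the RefSeq table.

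The counts of all cells of a stage were added up and scaled with TMM over the 9 stages (edgeR 4.0.16, R 4.3.3). Python 3.11.15 did the rest, with SciPy 1.17.1, pandas 2.3.3, numpy 2.4.6 and, for figures, matplotlib 3.10.9. A gene was taken as measured at 5 CPM or more on the higher day and counted as different at 2-fold. With 1 library per stage there was no test and no p-value. Exact Poisson, conditional binomial and Clopper-Pearson intervals (95%) cover counting error only. Shares of cells were taken after random thinning to 155164 reads per cell (10th percentile of the series), without shallower cells. Doublets were not called, since cells were picked singly. The ratio and its interval were tried on simulated Poisson sums, the model that the interval assumes. The simulation held no spread between cells or runs, so it checks the calculation only.

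Genes were named by 2 rules: the 15 with the largest fold in each direction among symbols not starting with LOC, at 20 CPM or more, read in at least 30% of cells of the higher day and with no cell above 10% of their reads; and, from each list, up to 6 members with the largest fold at 20 CPM or more and the 2 with the highest level. Other genes were chosen after their values were seen, including the fixed-list members HNF4A, GCLM, HMOX1, FOS, JUNB and DUSP2. The lists and the division into runs were chosen with earlier results of these data known. Alternatives were library size alone, DESeq2 1.42.0 size factors, TMM over the lactation stages, equal weight per cell, deep cells only, no most-read cell, other filters, other folds and, added later, other run numbers, the median over runs and no cells with blood cell markers. Single values of some list members are not reported here.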

Additional observations from a re-analysis of the deposited data

How the results depend on the processing

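No paired analysis was possible because each stage was 1 library and the labels carry no replicate numbers. The counts of genes past 2-fold, 413 higher at day 15 and 502 at day 7, became 210 and 183 with a minimum of 20 CPM, 1151 and 1087 at 1.5-fold, and 141 and 245 at 3-fold. With no filter on low levels, and a small constant added to both days, they became 589 and 1273. The genes whose runs were apart, 98 and 115, became 239 and 284 with 5 runs and 35 and 53 with 20 runs; these run numbers, the median over runs and the removal of cells with blood cell markers were chosen after seeing the data. Under scaling by library size alone 833 of the 915 calls were kept, and with the median over runs 708. Of 110 named genes past 2-fold, 8 came under it with library size alone, 9 with equal weight per cell and 7 without cells with blood cell markers, and of 108 with a value, 11 did so with the median over runs. The median of the apolipoproteins turned from -0.10 to 0.0025 with library size alone. Without cells with blood cell markers C1QB turned from -3.03 to 0.0541 and CCL5 from -2.77 to 0.0394 on the log2 scale. HBB went from -10.23 to -4.96 without the cell with the most reads of it. The cause of the other shifts was not tested. Counting error is small beside the named differences at 20 CPM or more. The number of animals is not known, and differences between animals of a stage cannot be told apart from differences between stages.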

Other observations

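Selenoproteins, a list chosen after seeing the data, were mixed. Of 18 measured members 4 were past 2-fold higher at day 7 and 0 at day 15 (5.72% and 4.7% of all genes), with a median log2 ratio of 0.07. The 4 were GPX1, SELENOP, SELENOW and SELENON. SELENOP, the plasma selenium carrier made by liver, was at 6174 and 2996 CPM. SELENOW was at 123 and 36.4 CPM. GPX4, which reduces lipid peroxides, was at 139 and 218 CPM, and the deiodinase DIO1 at 410 and 555 CPM. With scaling by library size alone or the median over runs SELENOP was under 2-fold.

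Among secreted proteins outside the lists, SERPINF1 was at 621 and 123 CPM and LRG1 at 1036 and 309 CPM, both higher at day 7. These genes were chosen after their values were seen.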
